A study of Mus musculus with 10 samples.

Results

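The complement system in B16F10 melanoma tumors was described here through 34 genes, the components, receptors and regulators whose symbols were found among the 55401 gene rows of the count data (Hc is the mouse name of the gene for C5). The genes were sorted by role into 8 initiation genes, 6 central genes, 7 terminal genes, 5 receptor genes and 8 inhibitor genes. B16F10 is a mouse melanoma line that grows as a transplantable tumor in C57BL/6J mice. Bulk RNA was sequenced from 10 such tumors grown under the skin of young adult C57BL/6J mice and taken on day 15. In 5 tumors the injected cells carried a Mir25 knockout (KO) made with CRISPR-Cas9, and in the other 5 they carried a non-targeting control guide (NTC). Every mouse in both groups had the same combination treatment, so no untreated tumor enters the comparison. That treatment was GVAX, a vaccine of 1000000 irradiated B16 cells that secrete GM-CSF, on days 1 and 4, followed by antibody to PD-1 at 10 mg/kg on days 6, 9 and 12. Only the injected tumor cells were edited. Host macrophages, fibroblasts and vessels kept Mir25 in both groups, and whether the cells of the sequenced tumors were edited through a lentiviral vector or by electroporation, with which guide, and as a population or a clone is not given in the sources used here. The labels call the tumors biological replicates and do not number the mice, so p-values measure the spread between these samples. The study asked how loss of Mir25 in the tumor cells bears on the response to immunotherapy, and complement was among the pathways it examined.

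Complement is a chain of plasma and cell-surface proteins that marks targets for phagocytosis and can open pores in membranes. C1q bound to antibody or to altered surfaces starts the classical route, ficolins and mannose-binding lectins with the MASP proteases start the lectin route, and both routes cut C4 and C2, while factors B and D with properdin carry the alternative loop. All routes meet at C3, whose fragments coat targets, and then at C5, whose large fragment gathers C6, C7, C8 and C9 into the membrane pore. The liver makes most plasma complement, but macrophages are a main source of C1q, and fibroblasts and tumor cells can make C3, C4 and C1s locally. Small fragments of C3 and C5 call in myeloid cells through receptors, and membrane or plasma inhibitors keep the chain in check on host cells.

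The libraries held 23243707 to 27006075 reads on genes in the KO tumors and 11896643 to 28682130 in the NTC tumors. NTC replicate 1 stood apart. It had the fewest reads, reads on 33193 genes against 22192 to 25435 in the other 9 tumors, and 42.95% of its reads outside annotated features against 17.47% to 28.18%. Fold changes of the members are therefore given over the 10 tumors and again over the 9 tumors without it. The Mir25 row had 0 reads in every library, so the knockout could not be checked in these data. All 8 melanoma markers passed the count filter, and their summed level was 11684 to 22262 counts per 1000000 (CPM). Summed levels of 10 macrophage markers were 531 to 2311 CPM in KO tumors and 179 to 2203 CPM in NTC tumors, where the highest NTC value other than replicate 1 was 643 CPM. For 10 fibroblast markers the ranges were 1177 to 6118 CPM and 149 to 6844 CPM, with 1903 CPM as the highest NTC value other than replicate 1. All 20 of these markers passed the count filter, none was at 0 in all tumors, and none of the macrophage or fibroblast markers was called different between the groups. In bulk tissue, fewer cells of a type and less RNA per cell cannot be told apart.

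Across all 34 genes, no complement gene passed the threshold between KO and NTC tumors. Of the 25 genes with enough reads to test, 0 were called by edgeR at an adjusted p under 0.05 with an absolute log2 fold change above 1, against 0.0190% of the 15821 genes tested. DESeq2 on the same tumors also called 0 of the 25, against 0.609% of all genes. At an unadjusted p under 0.05 in edgeR there was 1 member of 25, C4b, lower in KO tumors, where 8.85% of all genes had such a p in either direction and 4.85% in the lower direction, so the members' count was no higher than that of all genes. The fitted log2 fold change was positive for 16 of the 25 members, with a median of 0.26, against 51.3% positive and a median of 0.01 over all genes tested. In no member did the KO and NTC tumors separate without overlap, where 0.866% of all genes had every KO tumor above every NTC tumor and 1.47% had every one below.

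Without NTC replicate 1 most members had higher mean values in KO tumors. Then 21 of 25 fold changes were positive, the median log2 fold change was 1.09, against 48.1% positive and a median of -0.02 over all genes, and 9 members had an unadjusted p under 0.05 in edgeR, all 9 of them higher in KO. The share of all genes with such a p was 20.1%, with 12.0% in the higher and 8.10% in the lower direction. A log2 fold change above 1 was fitted for 3 members over 10 tumors against 3.43% of all genes, and for 13 members over 9 tumors against 10.5%. The groups still overlapped for every member over 9 tumors, where 2.71% of all genes had every KO tumor above and 3.59% every KO tumor below. These 9 were the C1q genes C1qa, C1qb and C1qc, the central genes C3 and Cfp, the terminal gene Hc, the anaphylatoxin receptors C3ar1 and C5ar1, and the inhibitor Cd59a. Over the same 9 tumors 8 of the 10 macrophage markers and 4 of the 10 fibroblast markers also had an unadjusted p under 0.05 in edgeR. In either direction, so did 8 of 10 pan-leukocyte, 3 of 5 neutrophil, 4 of 6 skeletal muscle and 2 of 8 melanoma cell markers. The part of the RNA of these cell types in the members' values was not tested. The lowest adjusted p among these members in edgeR was 0.147, for Hc, so none was called, against 0.106% of the 16078 genes tested. DESeq2 over the same 9 tumors and without a filter on low counts, a setting chosen after seeing the data, called 4 members higher, namely Hc (adjusted p = 0.0060), C3ar1 (0.0187), C5ar1 (0.0274) and Cfp (0.0371), and called 4.05% of all genes.

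**Figure D1:**
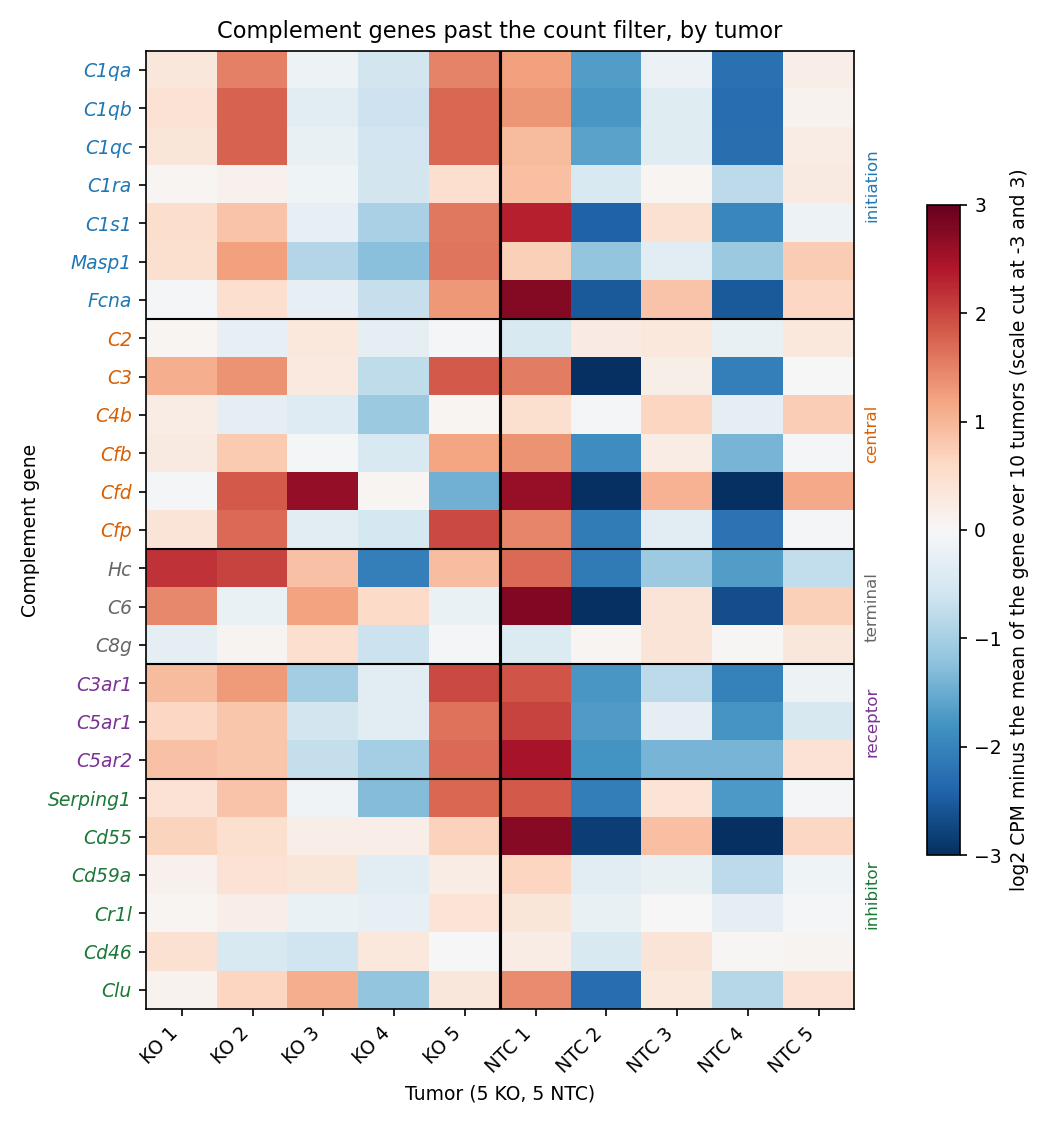
Levels of the 25 complement genes past the count filter in each of the 10 tumors, as log2 CPM minus the mean of that gene over the tumors, with rows grouped by role and KO tumors left of the thick line. KO replicates 2 and 5 and NTC replicate 1 are high for most rows and NTC replicates 2 and 4 are low for most rows, while C2 and Cr1l, with spans of 1.71 and 1.63 times, vary least.

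NTC replicate 1 was among the 3 highest tumors for 21 of the 25 tested members, and KO replicates 2 and 5 for 16 members each. NTC replicate 2 was among the 3 lowest tumors for 22 members, NTC replicate 4 for 21 and KO replicate 4 for 18. Most members were thus high or low in the same tumors, and both groups held high and low tumors.

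The recognition subunits of C1 had the highest median levels per kilobase of exon among the members, while C4b had the most reads (99340 against 82763 for C1qa). C1qa, C1qb and C1qc encode the chains of C1q, the antibody-binding part of the first component, and lie beside each other on chromosome 4 (GRCm38, minus strand, C1qa at chr4:136895917-136898803, C1qc at chr4:136889804-136893065 and C1qb at chr4:136880129-136886187). C1qa was at 339.6, 762, 242, 184 and 757 CPM in KO replicates 1 to 5 and at 634, 83.8, 236, 57.0 and 310.3 CPM in NTC replicates 1 to 5. KO replicates 2 and 5 were above every NTC tumor, NTC replicates 2 and 4 were below every KO tumor, and the groups overlapped. The log2 fold change was 0.79 ± 0.65 (SE, n = 5 against 5, edgeR adjusted p = 0.748) and 1.37 ± 0.58 without NTC replicate 1 (unadjusted p = 0.0407, edgeR adjusted p = 0.232). C1qb was at 327, 820.5, 191, 157 and 799 CPM in KO tumors and 600.3, 71.3, 188, 49.2 and 260.2 CPM in NTC tumors. C1qc was at 298, 790.4, 201, 157 and 762 CPM in KO tumors and 450.1, 76.6, 181, 48.0 and 272 CPM in NTC tumors. Both followed the order of C1qa, with the same KO tumors at the top and the same NTC tumors at the bottom. Their log2 fold changes were 0.98 ± 0.71 and 1.10 ± 0.65 over 10 tumors (SE, edgeR adjusted p = 0.723 and 0.652), and 1.65 ± 0.64 and 1.57 ± 0.63 over 9 tumors (edgeR adjusted p = 0.209 and 0.217).

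The ratios between the C1q chains varied less than their levels. Per kilobase of exon, C1qb was at 0.755 to 1.03 of the C1qa level over the 10 tumors and C1qc at 0.382 to 0.558. Pearson's r between C1qa and C1qb was 0.9963 over the 10 tumors on log2 CPM, between C1qb and C1qc 0.9952 and between C1qa and C1qc 0.9925. These are given as descriptions since all 3 genes share each library. Set against Csf1r, the gene of the macrophage growth factor receptor, C1qa had 1.86 ± 0.186 reads per Csf1r read in KO tumors (SD, n = 5) and 2.35 ± 0.422 in NTC tumors (SD, n = 5). The KO range was 1.59 to 2.10 and the NTC range 1.82 to 2.77, so the ratio overlapped between the groups, with the lower mean in KO tumors. Of the 25 tested members, 0 had fewer reads per Csf1r read in every KO tumor than in every NTC tumor, against 1.16% of all genes. Without NTC replicate 1 there were 3 such members, C1ra, Masp1 and C4b, against 13.6% of all genes.

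The promoter windows of the members were read for 3 short motifs, since the C1q genes moved together and macrophages express them. RefSeq windows (GRCm38.p6, 250 bases before to 50 after a start site) were matched for 26 of the 34 members, C1qb and C1qc among them and C1qa not. The letters GAGGAAGT, a core bound by the myeloid factor PU.1, were found on either strand in 1 of the 26, C1qc, against 3.69% of 27025 genes. The stretch of the C1qc window that holds it is shown with the match in capitals, read along the transcribed strand, which carries the reverse complement of the letters at chr4:136893102-136893109 (minus strand), 195 bases before the RefSeq start site.
C1qc promoter: ggacggcagacACTTCCTCattttggcaca
The letters TTCNNNGAA, a motif of interferon-activated STAT factors (GAS), were in 5 of 26 members (C1ra, C7, C8a, Masp2 and Vtn) against 9.55% of genes, and the interferon-stimulated response element motif (ISRE) was in 3 of 26 (Cd46, Cd59a and Vtn) against 3.99%. Both strands were read for each motif. The ISRE match in Cd59a lies 187 bases before the start site at chr2:104095614-104095623 (plus strand), with its letters in capitals.
Cd59a promoter: tgtttttaaaGAAAGGGAAAatcaagagcc
A match describes letters in a window and not a bound site, and 4 of the 5 members with TTCNNNGAA did not pass the count filter, the exception being C1ra. The GAGGAAGT count, 1 of 26, was near the share over all genes, and the C1qb window did not hold those letters.

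C1ra and C1s1 encode C1r and C1s, the protease pair that C1q activates, and sit near each other on chromosome 6. C1ra was at 78.4, 81.8, 68.6, 51.3 and 107 CPM in KO tumors and 139, 54.8, 78.0, 43.6 and 90.4 CPM in NTC tumors. Its range was narrow, with the groups interleaved and a log2 fold change of -0.07 ± 0.30 (SE, edgeR adjusted p = 0.960) that turned to 0.18 ± 0.24 over 9 tumors. C1s1 was at 70.5, 89.0, 41.7, 25.1 and 147 CPM in KO tumors and 245, 9.06, 67.0, 12.5 and 44.3 CPM in NTC tumors. The highest and the lowest C1s1 values were both NTC tumors, replicates 1 and 2. Its log2 fold change was -0.01 ± 0.82 over 10 tumors (edgeR adjusted p = 0.998) and 1.13 ± 0.65 over 9 (edgeR adjusted p = 0.346). Few reads fell on their close copies, 42 on C1rb and 47 on C1s2 over all 10 tumors, against 18790 on C1ra and 15113 on C1s1. An antisense gene, Gm16567, overlaps an exon of C1s1, and whether counting used strand is not given in the sources used here.

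Fcna, which encodes ficolin A, a lectin that binds sugars on microbes, was at 4.18, 6.19, 3.64, 2.67 and 10.7 CPM in KO tumors and 29.9, 0.689, 7.92, 0.691 and 6.66 CPM in NTC tumors. The NTC tumors spanned the whole range, with NTC replicate 1 above and NTC replicates 2 and 4 below every KO tumor. The log2 fold change was -0.71 ± 0.90 (SE, edgeR adjusted p = 0.843) and turned to 0.42 ± 0.74 without NTC replicate 1 (edgeR adjusted p = 0.772). Masp1, a lectin route protease, was near the floor at 0.902, 1.56, 0.303, 0.216 and 2.05 CPM in KO tumors and 1.08, 0.230, 0.473, 0.244 and 1.11 CPM in NTC tumors. These values rest on 6 to 46 reads, overlapped between the groups, and gave a log2 fold change of 0.73 ± 0.70 (SE, edgeR adjusted p = 0.780), and 0.90 ± 0.72 over 9 tumors. Masp2, which cuts C4 and C2 in the lectin route, had 14 reads over the 10 tumors, 9 of them in KO replicate 4, and was not tested.

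Among the central genes, Cfp, Cfb and C3 varied with C1qa (r of 0.99, 0.95 and 0.93 over the 10 tumors, as descriptions), while C4b and C2 did so less (0.27 and -0.22). C3, on which all routes meet, was at 435, 519.5, 252, 121 and 730.4 CPM in KO tumors and 595, 18.8, 233, 49.2 and 205 CPM in NTC tumors. The lowest NTC tumors, replicates 2 and 4, were below every KO tumor, and KO replicate 5 was above every NTC tumor. The log2 fold change of C3 was 0.90 ± 0.79 (SE, n = 5 against 5, edgeR adjusted p = 0.763) and 1.67 ± 0.73 over 9 tumors (unadjusted p = 0.0447, edgeR adjusted p = 0.238). Cfp, which encodes properdin, the stabiliser of the alternative route enzyme that myeloid cells release, was at 69.5, 174, 42.1, 37.1 and 212 CPM in KO tumors and 148, 12.4, 43.0, 11.4 and 52.0 CPM in NTC tumors. KO replicates 2 and 5 and NTC replicate 1 were the 3 highest tumors and NTC replicates 2 and 4 the lowest, as for C1qa. Its log2 fold change was 1.01 ± 0.75 (SE, edgeR adjusted p = 0.728) and 1.81 ± 0.66 over 9 tumors (unadjusted p = 0.0209, edgeR adjusted p = 0.198).

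C4b, the gene of C4, had a lower mean in KO than in NTC tumors. It was at 432, 303, 283, 172 and 391 CPM in KO tumors and 518, 363, 583, 304 and 624 CPM in NTC tumors. KO replicates 2, 3 and 4 were below every NTC tumor, NTC replicates 1, 3 and 5 were above every KO tumor, and the groups overlapped in the remaining 4 tumors. The mean was 316 ± 101 CPM in KO tumors (SD, n = 5) and 478 ± 139 CPM in NTC tumors (SD, n = 5). The log2 fold change was -0.60 ± 0.27 (SE, unadjusted p = 0.0484, edgeR adjusted p = 0.556). It was the same to 2 decimals without NTC replicate 1, at -0.60 ± 0.28 (unadjusted p = 0.0563, edgeR adjusted p = 0.260). C4b lies in the major histocompatibility region at chr17:34728380-34743882 (GRCm38, minus strand), and its near-identical copy C4a had 357 reads over the 10 tumors against 99340 on C4b, with a log2 fold change of -0.25 ± 0.40 (SE, edgeR adjusted p = 0.874). Reads that fit both copies may have been dropped or split in counting, so the C4b values are uncertain to that extent.

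C2, the protease that pairs with C4, lies in the same region at chr17:34862604-34898265 and had one of the steadiest levels. It was at 76.1, 62.1, 91.2, 59.7 and 71.6 CPM in KO tumors and 53.8, 86.7, 91.7, 62.7 and 91.3 CPM in NTC tumors. The highest tumor had 1.71 times the level of the lowest, where C3 spanned 39.0 times and C1qa 13.4 times. The groups overlapped, with a log2 fold change of -0.10 ± 0.17 (SE, edgeR adjusted p = 0.885), and -0.24 ± 0.16 over 9 tumors. C2 and Cfb both share exon sequence with the readthrough gene Gm20547 in the annotation, so some of their reads may have been counted as ambiguous.

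Cfb, factor B of the alternative route, was at 3.03, 4.37, 2.42, 1.80 and 5.74 CPM in KO tumors and 6.47, 0.624, 2.90, 0.895 and 2.39 CPM in NTC tumors. NTC replicates 2 and 4 were the lowest and NTC replicate 1 the highest, and the log2 fold change was 0.43 ± 0.59 (SE, edgeR adjusted p = 0.855) and 0.99 ± 0.50 over 9 tumors (edgeR adjusted p = 0.295). Cfd encodes factor D, also known as adipsin, a protease that fat cells make in large amounts. It was at 7.42, 27.4, 47.8, 7.93 and 2.76 CPM in KO tumors and 46.5, 0.689, 15.7, 0.244 and 16.7 CPM in NTC tumors, the widest span of any tested member with reads in all tumors at 196 times. The lowest value, in NTC replicate 4, rests on 6 reads. KO replicate 3 and NTC replicate 1 were highest, and the log2 fold change was 0.26 ± 1.13 (SE, edgeR adjusted p = 0.958) and 1.15 ± 1.13 over 9 tumors (edgeR adjusted p = 0.580). A score of 5 adipocyte markers, the mean of their log2 CPM, was likewise highest in KO replicate 3 (3.09), NTC replicate 1 (3.06) and KO replicate 2 (2.93) and lowest in NTC replicates 2 and 4 (-2.06 in each). The summed level of those markers, at 75.4, 144, 100.2, 27.5 and 112 CPM in KO tumors and 179, 14.2, 62.1, 8.82 and 40.0 CPM in NTC tumors, did not keep that order, since KO replicate 5 had a higher sum than KO replicate 3 and the lowest Cfd of the KO tumors. Of the markers 4 of 5 passed the filter, and their part in the Cfd values was not tested.

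**Figure D2:**
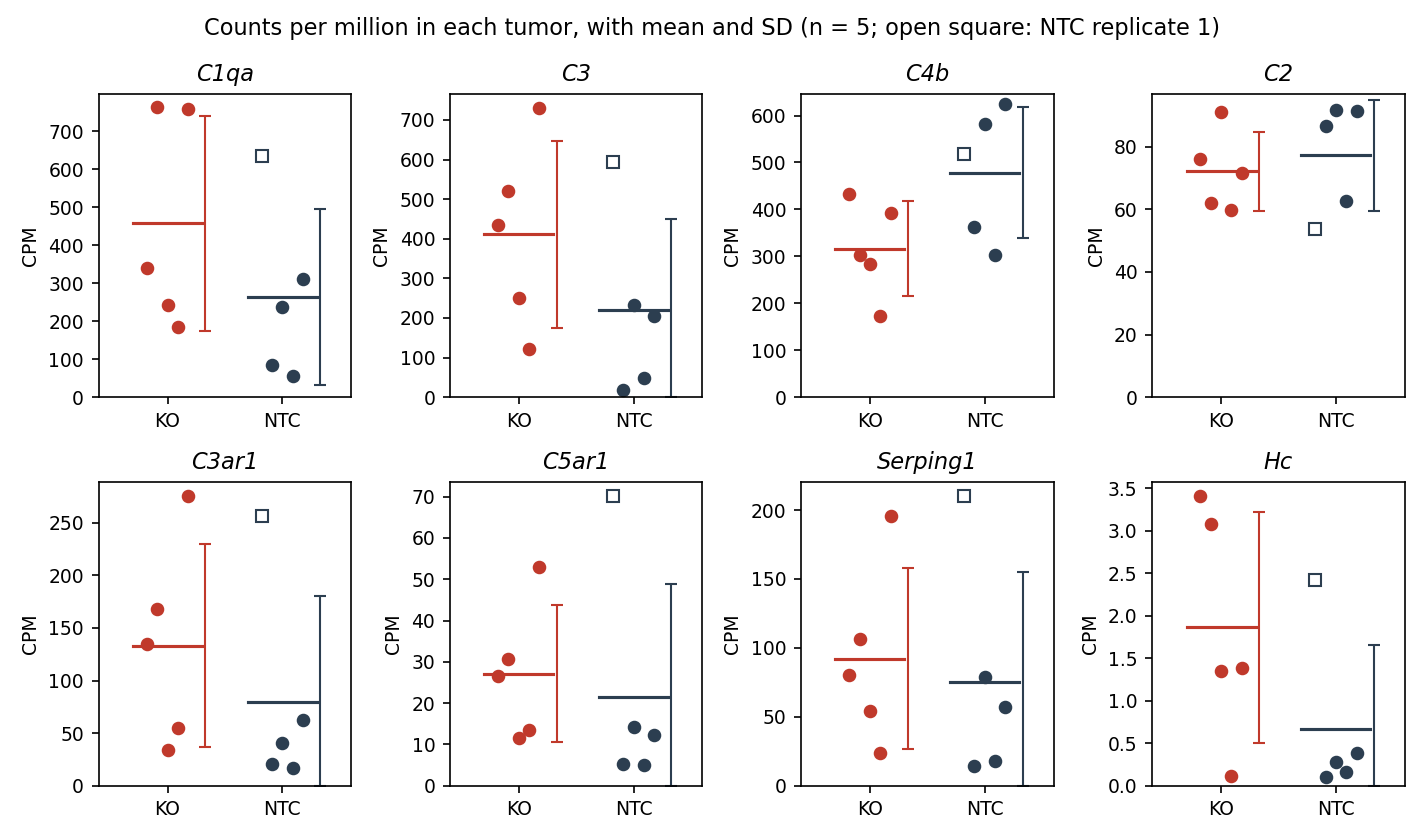
CPM of 8 complement genes in each KO and NTC tumor (points, with the line at the group mean and the bar at the SD, n = 5 per group, bars ending at 0 where the SD exceeds the mean). NTC replicate 1, the open square, is the highest NTC tumor for C1qa, C3, C3ar1, C5ar1, Serping1 and Hc, and in C4b 3 KO tumors are below every NTC tumor.

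Of the terminal genes, 3 of 7 could be tested and C7, C8a, C8b and C9 had 23 reads or fewer over all tumors. Hc encodes C5, whose cleavage releases C5a and starts the pore. It was at 3.40, 3.08, 1.35, 0.108 and 1.38 CPM in KO tumors and 2.42, 0.0985, 0.284, 0.163 and 0.382 CPM in NTC tumors. Except for KO replicate 4, with 3 reads, the KO tumors were above NTC replicates 2 to 5, while NTC replicate 1 was above KO replicates 3, 4 and 5. The log2 fold change was 1.74 ± 0.98 (SE, edgeR adjusted p = 0.641) and 2.93 ± 0.81 over 9 tumors (unadjusted p = 0.00465, edgeR adjusted p = 0.147), the largest in size of any member in both fits. The 4 NTC tumors of the second fit held few Hc reads, and an antisense gene, Gm13449, overlaps an exon of Hc. C6, the next protein to join, was at 3.36, 1.02, 2.86, 1.80 and 1.02 CPM in KO tumors and 8.62, 0, 1.58, 0.122 and 2.01 CPM in NTC tumors. Again the highest and the lowest tumors were both NTC, and the log2 fold change turned from -0.20 ± 1.09 over 10 tumors (edgeR adjusted p = 0.965) to 1.09 ± 0.93 over 9 (edgeR adjusted p = 0.521). C8g, the gamma chain of C8, was steady at 1.76, 2.32, 3.13, 1.37 and 2.09 CPM in KO tumors and 1.62, 2.30, 2.87, 2.24 and 2.81 CPM in NTC tumors, with a log2 fold change of -0.16 ± 0.27 (SE, edgeR adjusted p = 0.881), and -0.29 ± 0.26 over 9 tumors.

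C7 had 23 reads over all tumors, C9 had 9, and C8a and C8b, the chains that pair with C8g in the C8 protein, had 3 each. No read of C8a or C8b was found in 8 of the 10 tumors, and in those tumors a count of 0 allows up to 0.0947 to 0.123 CPM (3 counts, counting error only). NTC replicate 1 held 9 of the C7 reads, 6 of the C9 reads and 2 of the 3 reads each of C8a and C8b. The plasma proteins of the pore are made mainly in the liver, and 8 hepatocyte markers summed to 0.732 to 1.75 CPM in these tumors, with 1 of the 8 past the count filter.

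The receptors for the small complement fragments varied together. C3ar1, the receptor for C3a on myeloid cells, was at 135, 168, 33.5, 54.5 and 275 CPM in KO tumors and 257, 20.6, 40.2, 16.8 and 62.5 CPM in NTC tumors. NTC replicate 1 lay among the highest tumors and the other 4 NTC tumors lay below KO replicates 1, 2 and 5. The log2 fold change was 0.76 ± 0.80 (SE, edgeR adjusted p = 0.808) and 1.89 ± 0.61 over 9 tumors (unadjusted p = 0.0120, edgeR adjusted p = 0.180). C5ar1, the main receptor for C5a, was at 26.6, 30.8, 11.6, 13.6 and 53.0 CPM in KO tumors and 70.0, 5.25, 14.3, 5.00 and 12.2 CPM in NTC tumors. NTC replicate 1 was the highest of the 10, and without it the log2 fold change went from 0.37 ± 0.74 (edgeR adjusted p = 0.901) to 1.52 ± 0.49 (unadjusted p = 0.0114, edgeR adjusted p = 0.178). C5ar2, a second C5a receptor that does not couple to G proteins, was at 1.68, 1.63, 0.505, 0.397 and 3.02 CPM in KO tumors and 5.25, 0.197, 0.284, 0.285 and 1.21 CPM in NTC tumors. NTC replicate 1 and KO replicate 5 were again the highest tumors, with log2 fold changes of 0.14 ± 0.94 over 10 tumors (edgeR adjusted p = 0.974) and 1.49 ± 0.72 over 9 (edgeR adjusted p = 0.276). Per Csf1r read, C3ar1 had 0.511 ± 0.152 reads in KO tumors (SD, n = 5) and 0.593 ± 0.119 in NTC tumors (SD, n = 5), and C5ar1 had 0.113 ± 0.0234 and 0.161 ± 0.0367. Both ratios overlapped between the groups.

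Cr2, the receptor for C3 fragments on B cells and follicular dendritic cells, had 26 reads over the 10 tumors, 15 of them in NTC replicate 1. Vsig4, the C3b receptor of resident macrophages, had 70 reads, spread over 8 tumors and at most 16 in any of them. Neither passed the filter.

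C3ar1 was also the only 1 of the 34 members whose 3′ untranslated region held a match to the seed of miR-25-3p, the microRNA deleted in the KO cells. The mature miR-25-3p (RefSeq, GRCm38.p6, chr5:138165332-138165353, minus strand) is shown with its seed, bases 2 to 8, in capitals, and the C3ar1 stretch (chr6:122849533-122849539 for the match, minus strand, 284 bases after the stop codon in the GENCODE M21 transcript) with the bases that pair with it in capitals.
mmu-miR-25-3p: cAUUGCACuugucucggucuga
C3ar1 site: gactacaccatGTGCAATgaataacttttt
The same seed is carried by miR-32-5p, miR-92a-3p, miR-92b-3p, miR-363-3p and miR-367-3p, so the match is not particular to miR-25. Among 20989 genes with an annotated 3′ untranslated region, 6.57% had such a match, and the members had shorter regions, with a median of 367 bases against 961. No member held the longer match that adds an A after the seed pairing, against 2.28% of genes. A match of letters is a description and not a site that was shown to be bound, and the cells that carried the C3ar1 reads cannot be told apart in bulk tissue.

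The inhibitors spanned plasma and membrane proteins. Serping1 encodes the C1 inhibitor, which removes C1r and C1s from activated C1. It was at 80.1, 106, 54.5, 23.9 and 196 CPM in KO tumors and 209.9, 13.9, 78.7, 17.9 and 56.9 CPM in NTC tumors. Its order over the tumors was close to that of its target C1s1, with a Pearson's r of 0.99 over the 10 tumors given as a description, and the log2 fold change was 0.30 ± 0.74 (SE, edgeR adjusted p = 0.926) and 1.10 ± 0.64 over 9 tumors (edgeR adjusted p = 0.355). Cd55, decay-accelerating factor, which takes apart the C3-cutting enzymes on cell membranes, was at 6.36, 5.58, 4.58, 4.61 and 6.54 CPM in KO tumors and 27.1, 0.492, 7.48, 0.244 and 6.14 CPM in NTC tumors. The KO tumors lay close together inside an NTC range that spanned 111 times. The low end of that range rests on 6 reads in NTC replicate 4 and 15 in NTC replicate 2, and its high end is NTC replicate 1. The log2 fold change of Cd55 was -0.54 ± 0.93 over 10 tumors (edgeR adjusted p = 0.882) and 0.59 ± 0.78 over 9 (edgeR adjusted p = 0.689). Cd59a, which blocks the pore on host membranes, was at 6.27, 7.67, 7.31, 4.54 and 6.72 CPM in KO tumors and 9.03, 4.53, 4.86, 3.29 and 5.17 CPM in NTC tumors. Without NTC replicate 1 only KO replicate 4 was below any NTC tumor, and the log2 fold change went from 0.29 ± 0.27 (edgeR adjusted p = 0.773) to 0.51 ± 0.21 (unadjusted p = 0.0340, edgeR adjusted p = 0.223).

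Cr1l, known as Crry, the main membrane inhibitor of C3 cleavage on mouse cells, was steady at 61.3, 68.4, 51.4, 50 and 78.2 CPM in KO tumors and 75.8, 51.0, 58.1, 48.0 and 57.0 CPM in NTC tumors. The groups interleaved within a 1.63-fold range, and the log2 fold change was 0.09 ± 0.16 (SE, edgeR adjusted p = 0.879) and 0.17 ± 0.13 over 9 tumors. Cd46, a cofactor that in mice is known mainly from the testis, was low and steady at 6.23, 3.27, 2.93, 5.62 and 4.58 CPM in KO tumors and 5.25, 3.25, 5.93, 4.64 and 4.79 CPM in NTC tumors, with a log2 fold change of -0.07 ± 0.26 (SE, edgeR adjusted p = 0.949), and -0.07 ± 0.27 over 9 tumors. Clu, clusterin, which holds back the pore in plasma, was at 2.05, 3.04, 4.18, 0.793 and 2.45 CPM in KO tumors and 5.25, 0.328, 2.40, 1.02 and 2.64 CPM in NTC tumors, and its log2 fold change was 0.15 ± 0.64 (SE, edgeR adjusted p = 0.956) and 0.62 ± 0.59 over 9 tumors (edgeR adjusted p = 0.570). Cr1l, Cd46 and Clu thus showed no difference between the groups beyond the spread of the tumors. Cfi, the protease that cuts C3b and C4b, had 54 reads over the 10 tumors, and Vtn, vitronectin, had 28, and neither was tested. Antisense genes overlap exons of Cd46 and Cd55, and Cd55b and Cd59b, close copies of Cd55 and Cd59a, had 5 and 23 reads in all.

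**Figure D3:**
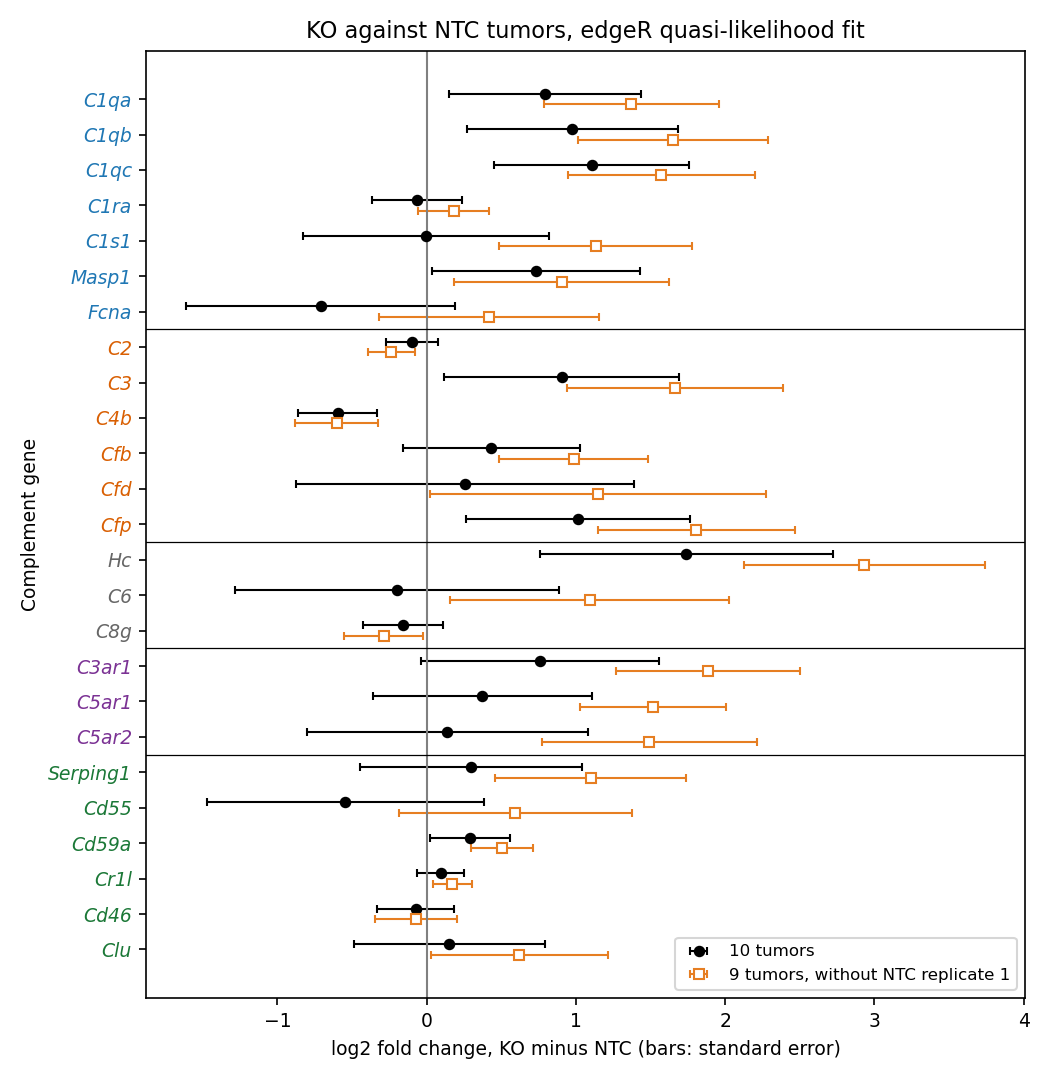
Log2 fold change of KO against NTC tumors for the 25 tested complement genes with its standard error, from the edgeR fit over 10 tumors (filled circles) and over the 9 tumors without NTC replicate 1 (open squares). The 9-tumor values lie to the right of the 10-tumor values for most genes, with Hc farthest at 2.93, and C4b is at -0.60 in both.

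By role, the fits read as follows, beside 51.3% positive fold changes over all genes with 10 tumors and 48.1% with 9. Of 7 tested initiation genes, 4 had a positive log2 fold change over 10 tumors and the median was 0.73, and over 9 tumors all 7 were positive with a median of 1.13. Of 6 central genes, 4 were positive in both fits, with medians of 0.34 and 1.07, and C4b and C2 were negative in both. The 3 receptor genes were positive in both fits, with medians of 0.37 and 1.52. Of 6 inhibitor genes, 4 were positive over 10 tumors and 5 over 9, with medians of 0.12 and 0.55. Of 3 terminal genes, 1 was positive over 10 tumors and 2 over 9, with medians of -0.16 and 1.09. No role had a called gene in either edgeR fit. Differences between the roles were not tested.

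Compared per kilobase of exon, the 3 C1q genes ranked highest by their median over the 10 tumors, at 265.5, 207 and 122 CPM per kb for C1qa, C1qb and C1qc. C4b (66.3), C3 (47.1), Serping1 (29.2) and Cfp (27.4) came next, and C7, Cr2, Masp2, C8a, C8b and C9 were at the foot of the list. The order was not the same in every tumor, since C4b was above C1qc in NTC replicates 2, 3 and 4 and above C1qb in NTC replicate 4. Initiation genes made up 75.5% ± 5.30 of the summed CPM per kb of the 34 genes in KO tumors (SD, n = 5) and 66.4% ± 6.71 in NTC tumors (SD, n = 5). Central genes made up 17.9% ± 4.796 and 25.8% ± 6.64. Both shares overlapped between the groups. Inhibitors took 2.50% to 4.38% in KO tumors and 3.54% to 6.02% in NTC tumors, receptors 1.56% to 3.67% and 1.86% to 4.28%, and terminal genes 0.0785% to 0.396% and 0.230% to 0.634%.

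The share of C4b differed between tumors. C4b took 6.57%, 2.24%, 6.21%, 5.31% and 2.76% of the summed CPM per kb in KO tumors and 4.32%, 19.4%, 12.4%, 21.1% and 10.9% in NTC tumors. Every KO tumor was below NTC replicates 2 to 5, and NTC replicate 1 was inside the KO range. The share of Cfp also separated, at 3.025% to 4.90% in KO tumors and 2.18% to 3.006% in NTC replicates 2 to 5. NTC replicate 1 was inside the KO range for Cfp as well, at 4.06%. Each share is part of a sum in which the C1q genes took 49.4% to 79.9%, and the same count was not made over all genes. The ratio of C3 to C4b per kb was 1.12, 1.90, 0.984, 0.776 and 2.07 in KO tumors and 1.27, 0.0571, 0.444, 0.179 and 0.364 in NTC tumors. All KO tumors were above NTC replicates 2 to 5 for this ratio, and NTC replicate 1 was again inside the KO range. Counted as reads per C4b read, 15 of the other 24 tested members were higher in every KO tumor than in NTC replicates 2 to 5, where the same held for 15% of all genes (2373 of 15820). With NTC replicate 1 included, this count was 0 of 24 members and 4.28% of all genes. C4b was chosen as the denominator after its values were seen.

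**Figure D4:**
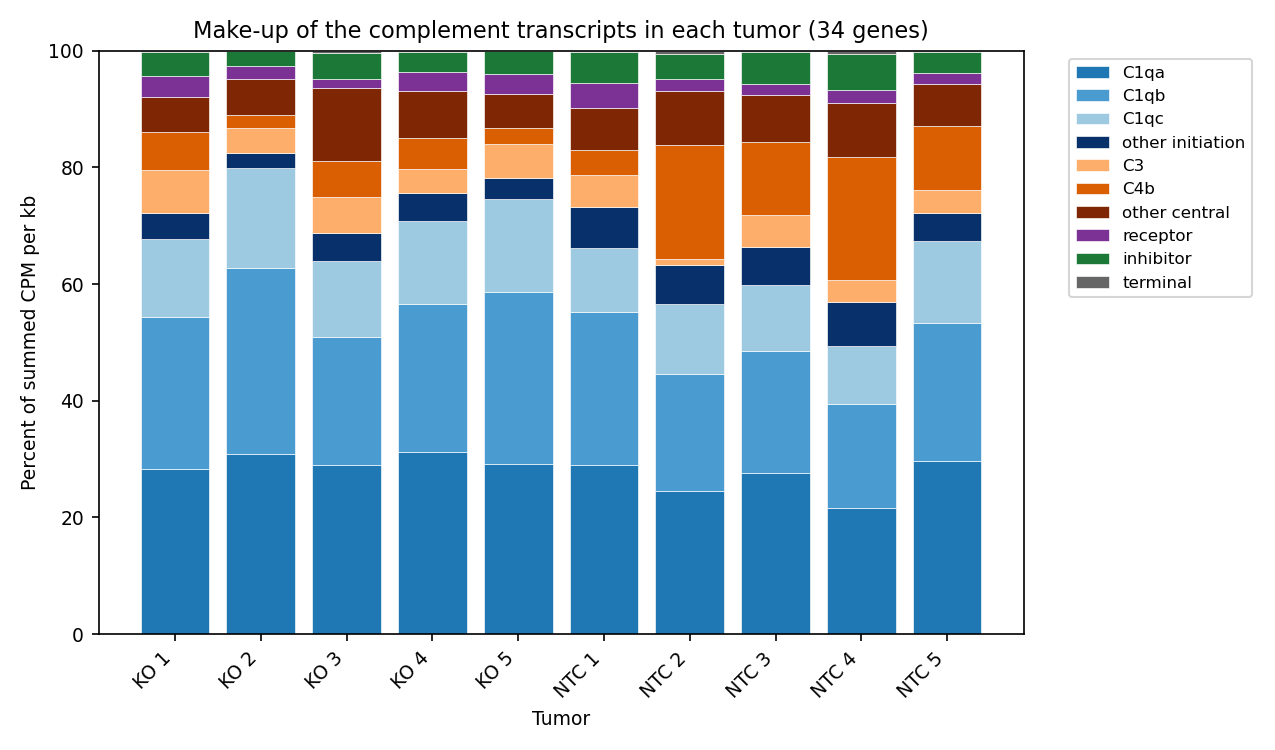
Share of the summed CPM per kb of the 34 complement genes taken by single genes and roles in each tumor (stacked bars, in percent). The 3 C1q genes take 49.4% to 79.9% in every tumor, and the C4b share is widest in NTC replicates 2 and 4, at 19.4% and 21.1%.

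The members were next set against marker scores of the cell types a tumor can hold, each the mean log2 CPM of its markers, over the 10 tumors. Of 75 pairs of 25 members and 3 scores, 57 had an adjusted p under 0.05 by a permutation test of Pearson's r with 100000 resamples, two-sided and adjusted over the 75 pairs. These were 21 positive pairs with the macrophage score, 21 positive pairs with the fibroblast score and 15 negative pairs with the melanoma cell score. By Spearman's rho 44 pairs passed, and by Pearson's r without NTC replicate 1, 48 passed. When the 2 tumors farthest from the median score were left out, 55 of the 57 kept their sign. The macrophage and fibroblast scores were themselves correlated over these tumors (r = 0.95), so which cell type a member followed could not be told apart. Members and scores were read from the same libraries, so the p-values do not separate cell content from other differences between tumors.

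Cfp had the highest r with the macrophage score. For Cfp, r was 0.99 and rho 0.94 (permutation p = 4e-05 and 0.0002, adjusted p = 0.00025 and 0.00143), and r was 0.98 without NTC replicates 2 and 4, the tumors farthest from the median. For C1qa, r was 0.98 and rho 0.94 (permutation p = 2e-05 and 0.00034, adjusted p = 0.000188 and 0.0018), and 0.97 without those tumors. C3 had the highest r with the fibroblast score. C3 had r = 0.98 and rho = 0.96 (permutation p = 1e-05, the smallest the resamples can give, and 2e-05, adjusted p = 0.000125 and 0.000625), and r = 0.93 without the 2 tumors. Cfb had r = 0.98 and rho = 0.99 with the fibroblast score, with r = 0.95 without them, and r = 0.97 with the macrophage score. The receptor C5ar1 had r = 0.97 with the macrophage score and -0.90 with the melanoma cell score.

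An r above 0.7 with the macrophage score was found in 20 of the 25 members against 22.3% of all genes, and with the fibroblast score in 21 of 25 against 19.6%. An r below -0.7 with the melanoma cell score was found in 13 of 25 against 19.3%. The members that did not follow the first 2 scores were C2, C4b, C8g and Cd46, with r of -0.33, 0.24, -0.23 and 0.17 against the macrophage score (adjusted permutation p = 0.385, 0.539, 0.544 and 0.635). C2 had the most positive r with the melanoma cell score, at 0.63 with rho = 0.70 (permutation p = 0.0482 and 0.0308, adjusted p = 0.0603 and 0.0502), and its r was 0.43 without NTC replicate 1. C8g had r = 0.54 and rho = 0.73 with that score (permutation p = 0.108 and 0.0200, adjusted p = 0.131 and 0.0342), and its r was 0.40 without NTC replicate 1. The relations of Cfd and C6 with the macrophage and fibroblast scores rested on NTC replicates 2 and 4. Without them, r of Cfd went from 0.67 to -0.06 with the macrophage score and from 0.70 to -0.11 with the fibroblast score. For C6 it went from 0.75 to 0.11 and from 0.87 to 0.30.

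**Figure D5:**
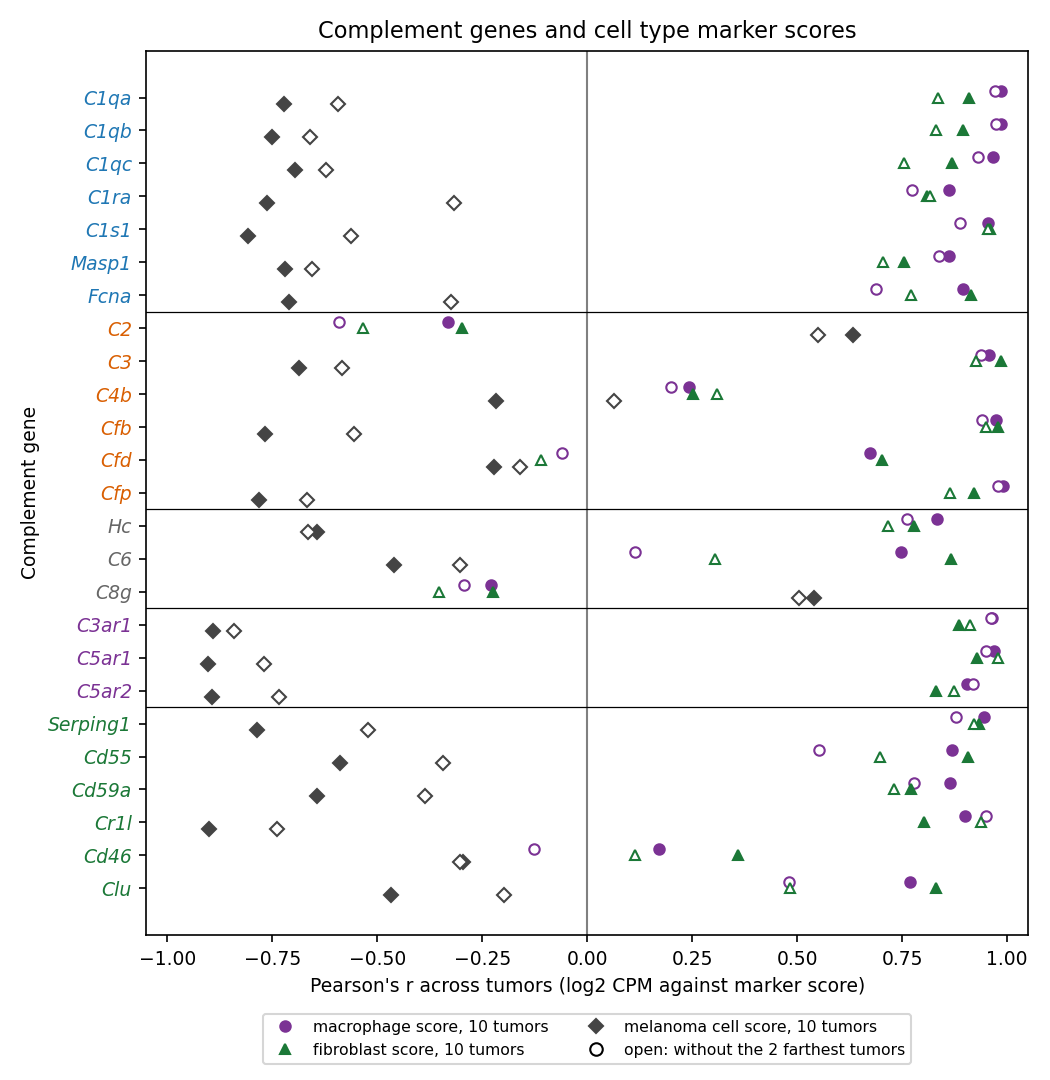
Pearson's r over 10 tumors between the log2 CPM of each tested complement gene and the macrophage, fibroblast and melanoma cell marker scores (filled), and without the 2 tumors farthest from the median score (open). Most genes sit above 0.7 for the first 2 scores and below 0 for the melanoma cell score, and C2, C4b, C8g and Cd46 sit below 0.7 for the first 2.

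Within the groups the same held, with r between the deviations from the group means of 0.98 for C1qa and 0.99 for Cfp with the macrophage score and 0.98 for C3 with the fibroblast score. For C4b, that value was 0.69 with the macrophage score and 0.68 with the fibroblast score, against 0.24 and 0.25 over all tumors, given as descriptions. With a score of 10 pan-leukocyte markers as a covariate in the edgeR fit, the log2 fold changes of C1qa, C1qb and C1qc were 0.05, 0.09 and 0.20, that of C3 was 0.26, and that of C4b was -0.89 ± 0.21 (SE, unadjusted p = 0.00129, edgeR adjusted p = 0.108). In the same fit C1ra was at -0.42 ± 0.11 (SE, unadjusted p = 0.00338, edgeR adjusted p = 0.148) and Fcna at -1.08 ± 0.41 (unadjusted p = 0.0223, edgeR adjusted p = 0.285). C4b, C1ra and Fcna were the 3 of 25 members lower at an unadjusted p under 0.05, against 6.48% of all genes. With the fibroblast score as the covariate, C4b was at -0.88 ± 0.23 (SE, unadjusted p = 0.00241, edgeR adjusted p = 0.225) and Fcna at -1.13 ± 0.25 (SE, unadjusted p = 0.000998, edgeR adjusted p = 0.204). C1s1 was at -0.56 ± 0.21 (SE, unadjusted p = 0.0209, edgeR adjusted p = 0.382) and C1ra at -0.40 ± 0.16 (SE, unadjusted p = 0.0265, edgeR adjusted p = 0.411). These were the 4 of 25 members lower at such a p, against 5.34% of all genes. No member was called in either fit.

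Set against collagen, C1s1 and Serping1 differed between the groups without overlap. C1s1 had 0.0587 to 0.0870 reads per read of Col1a1 and Col1a2, the type I collagen genes, in KO tumors and 0.120 to 0.388 in NTC tumors. Serping1 had 0.0667 to 0.114 in KO tumors and 0.128 to 0.597 in NTC tumors. They were the 2 of 25 tested members for which every KO tumor was below every NTC tumor on this scale, where the same held for 0.733% of all genes, and the denominators were chosen after the data were seen. Without NTC replicate 1 there were 5 such members, with C1ra, C4b and Cfb added, against 5.62% of all genes. NTC replicate 2, the tumor with the lowest fibroblast marker sum, gave the highest value of both ratios. C3 on the same scale overlapped, at 0.412 ± 0.0822 in KO tumors (SD, n = 5) and 0.535 ± 0.170 in NTC tumors (SD, n = 5).

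A list of 35 other genes, made of pathway genes, regulators, receptors and related genes and of Sdc3, which is no complement gene, held 14 that could be tested over 10 tumors. None was called by edgeR, and 2 had an unadjusted p under 0.05, both higher in KO against 3.99% of all genes in that direction. These were Itgax, the alpha chain of complement receptor 4 on dendritic cells and macrophages, at a log2 fold change of 1.11 ± 0.38 (SE, unadjusted p = 0.0148, edgeR adjusted p = 0.405), and C1qtnf6, a secreted protein with a C1q-like domain, at 0.24 ± 0.10 (SE, unadjusted p = 0.0416, edgeR adjusted p = 0.531). Over 9 tumors, 8 of 15 tested genes had an unadjusted p under 0.05, against 20.1% of all genes, and none was called. Of these, 7 were higher in KO, against 12.0% of all genes, among them Itgax (1.19), its partner chain Itgb2 (1.61), Cd93 (1.56), a myeloid and endothelial surface protein once taken for a C1q receptor, the scavenger collectin Colec12 (1.69), thrombomodulin Thbd (2.10) and the syndecan Sdc3 (1.62). Without Sdc3, an alternative chosen after seeing the data, the counts over 9 tumors were 6 higher and 1 lower of 14. The mitochondrial C1q-binding protein gene C1qbp was lower, at -0.26. Itgam, the alpha chain of complement receptor 3, was at -0.02 ± 0.78 over 10 tumors (SE, edgeR adjusted p = 0.996) and 1.19 over 9 tumors (unadjusted p = 0.0549 in edgeR). Thbd was the one of the 15 in which every KO tumor was above NTC replicates 2 to 5, where this held for 2.71% of all genes.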

How the data were processed

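Bulk RNA-seq of 10 B16F10 tumors was analysed, 5 per group, with groups and replicate numbers taken from the labels. The deposited values were whole-number counts of reads per gene, not normalized, that the authors made by trimming with Trimmomatic, aligning with HISAT2 to mm10 and counting with HTSeq, per the submitters' processing notes. The strand setting is not given in the sources used here. Reads outside features, ambiguous reads and multi-mapped reads stood in 5 summary rows, which held 35.29% to 64.09% of all reads per library and were left out. Library sizes were scaled by TMM in edgeR 4.0.16 (R 4.3.3), genes were filtered with filterByExpr, and the groups were compared with the quasi-likelihood F test, with p adjusted by Benjamini-Hochberg across the genes that passed. Calls needed an adjusted p under 0.05 and an absolute log2 fold change above 1. Printed CPM are scaled counts per 1000000, and levels compared between genes were divided by the exon length of GENCODE M21. Each tumor gave 11896643 to 28682130 reads, so low genes carry counting error. Correlations used log2 CPM with a prior count of 2, and 100000 permutations (scipy 1.17.1).

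DESeq2 1.42.0, RLE scaling, other filters, a replicate block, 2 marker covariates, each tumor left out in turn and no fold threshold were tried as alternatives, with their effect in the closing section. Every member is named, by tumor where it passed the filter, and of the other pathway genes those with an unadjusted p under 0.05 over 10 or 9 tumors and Cd93, Itgam and Itgb2, with 1 gene of that list not reported here. The members, roles and lists were chosen with earlier results of these data known. The scripts were tested on simulated data. No libraries agreed within sampling noise. Same-numbered KO and NTC tumors had correlations of their deviations of 0.172, -0.287, 0.0788, 0.633 and 0.206, so the numbers do not pair the tumors. Promoter and microRNA sequences are from RefSeq (GRCm38.p6) and 3′ untranslated regions from GENCODE M21.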

Additional observations from a re-analysis of the deposited data

Results flagged for a closer look

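Values were singled out where 1 tumor lay apart from the other 4 of its group, with a gap to its nearest neighbour above 0.71 of the range of the group, on CPM and within-tumor ratios. Of 126 groups examined 27 had such a tumor, where chance gives about 1 in 20 for independent and roughly normal values. That rate does not apply as such here, since the groups share libraries and CPM are skewed, with some groups at 0 but for 1 read. NTC replicate 1 was that tumor in 21 of the 27. On log2 CPM, 0 of 50 groups of tested members had one.

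NTC replicate 1 stood above the other NTC tumors for C1s1 (245 CPM), C3ar1 (257 CPM), C5ar1 (70.05 CPM), Fcna (29.9 CPM), Cd55 (27.1 CPM), C6 (8.62 CPM), C5ar2 (5.25 CPM) and Hc (2.42 CPM). Among genes with few reads it stood above them for Vsig4 (2.16 CPM), Cr2 (2.02 CPM), C7 (1.21 CPM), C9 (0.808 CPM), and C8a, C8b and Vtn (0.269 CPM each). It was also apart for the receptor share of complement transcripts (4.28%), for Cr1l (6.49 reads per 1000 reads of the melanoma cell markers), and for the summed macrophage (2203 CPM), fibroblast (6844 CPM), neutrophil (102 CPM) and melanoma cell (11684 CPM) markers, the last of them low. This was the library with the fewest reads, the largest share of reads outside annotated features, and with reads on 33193 genes against at most 25435 in the others, so few reads in it, as of C7, C8a, C8b, C9 and Cr2, may not mean what they mean in the other libraries. The part of those properties in these values was not tested.

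KO replicate 5 held the only KO reads of C8a, C8b and C9 (0.0445 CPM each), and KO replicate 4 was highest for Masp2 (0.324 CPM from 9 reads). NTC replicate 2 was highest for C1s1 and Serping1 per type I collagen read (0.388 and 0.597).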

How the results depend on the processing

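No member was called by edgeR in any setting tried, with either tumor set, and DESeq2 on the 10 tumors gave 0 as well. The exception was DESeq2 on 9 tumors without a filter, chosen after seeing the data, which called 4 members higher. Members higher at an unadjusted p under 0.05 numbered 0 over 10 tumors, 2 of 34 with no filter (2.81% of all genes), 12 of 34 in that DESeq2 fit (7.86%) and 0 to 9 when 1 tumor was left out, with 9 of 25 without NTC replicate 1 (12.0%) and 1 without KO replicate 4 (5.61%). Members lower at such a p numbered 1 over 10 tumors, 0 with at least 10 counts in every tumor (5.28% of all genes), 3 of 25 with the leukocyte score (6.48%), 4 of 25 with the fibroblast score (5.34%), 0 in that DESeq2 fit and 0 to 1 when 1 tumor was left out. C4b lost its unadjusted p under 0.05 without KO replicate 2, 3 or 4 or NTC replicate 1, 3 or 5, with log2 fold changes of -0.74 to -0.44 when 1 tumor was left out. Over all genes edgeR called 1 higher and 2 lower. DESeq2 called 24 and 72, and on 9 tumors without a filter 618 and 136. A minimum of 10 counts in every tumor gave 0 and 6, the leukocyte score 4 and 5, and no fold threshold 4 lower. Leaving out 1 tumor gave 1 to 2 higher and 0 to 15 lower, the highest of both without NTC replicate 1. Of the 57 pairs with marker scores 48 passed without NTC replicate 1. With the 8mer alone, 0 members held a miR-25 seed match. The causes of these shifts were not tested.

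Same-numbered KO and NTC tumors did not all deviate together, so a replicate block pairs tumors by number only. With the block, edgeR called 1 gene higher and 0 lower over all genes, and at an unadjusted p under 0.05 there was 1 member higher, Hc (1.80, with 5.05% of all genes higher), and 1 lower, C4b (-0.61, unadjusted p = 0.00371, with 5.24% lower). Log2 fold changes that turned with the block were C1ra (0.012), C1s1 (0.71), Fcna (0.34), C6 (0.99) and Cd55 (0.73).

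The sign of other log2 fold changes turned as follows. RLE scaling gave C1s1 at 0.0028, and no filter gave it at 0.14. The leukocyte score gave Masp1 -0.55, Cfb -0.14, C6 0.15, C3ar1 -0.020, C5ar1 -0.20, C5ar2 -0.64, Serping1 -0.47, Cr1l -0.13 and Clu -0.10. The fibroblast score gave Masp1 -0.17, Cfb -0.14, C5ar1 -0.16, C5ar2 -0.57, Serping1 -0.40, Cr1l -0.087 and Clu -0.23. DESeq2 on 9 tumors without a filter gave C1ra 0.21, C1s1 1.17, Fcna 0.46, C6 1.10 and Cd55 0.62. With 1 tumor left out, 12 of 25 members changed sign in at least 1 fit, and their ranges were -0.22 to 0.18 for C1ra, -0.40 to 1.13 for C1s1, -1.10 to 0.42 for Fcna, -0.46 to 1.15 for Cfd, -0.54 to 1.09 for C6, -0.012 to 1.52 for C5ar1, -0.31 to 1.49 for C5ar2, -0.17 to 1.10 for Serping1, -0.86 to 0.59 for Cd55, -0.0025 to 0.17 for Cr1l, -0.22 to 0.048 for Cd46 and -0.14 to 0.62 for Clu. Low counts limit Hc, Masp1, C5ar2, the lowest tumors of Cd55, Cfd and C6, and the 9 members that were not tested.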
